A study of Homo sapiens with 8 samples.

Results

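The kinesin motor genes of 5637 and UM-UC3 bladder cancer cells were followed over 4 doses of melatonin, the hormone of the pineal gland. All protein-coding genes whose symbol is KIF or KIFC followed by a digit were taken, which gave 42 of the 60612 genes listed, 19937 of them protein-coding. By their known function, 14 were grouped as mitotic kinesins, 15 as transport kinesins and 13 as other kinesins, the last acting at the cilium, on microtubule dynamics or in roles less well described. RNA was sequenced after 24 h with the solvent DMSO (0 mM) or with melatonin at 1, 2 or 4 mM, in 8 libraries, a single one for each dose in each line. Both lines are established human bladder cancer lines with the genotype WT in the labels. The 5637 cells grew in RPMI and the UM-UC3 cells in MEM, each with fetal bovine serum, so the line and its medium cannot be told apart. No dose was repeated in a line. A p-value therefore reflects no more than the size of a trend over dose beside the scatter of these 8 libraries around it.

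Kinesins are motor proteins that burn ATP to walk along microtubules or to take microtubule ends apart. The mitotic kinesins build the spindle, move chromosomes and complete cytokinesis, and their genes are mostly expressed around the G2 and M phases of dividing cells. Transport kinesins carry vesicles, organelles and RNA along microtubules whether or not the cell divides, often bound to cargo through light chains and other adaptors.

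Levels are given as FPKM, fragments per length of transcript and size of library, which allows levels of different genes to be compared per length. The FPKM values summed to between 332960 and 395620 per library, 21438 to 24780 genes were above 0, and the sequencing depth is unknown because no read counts were used here. A trend over dose was fitted with limma to log2(FPKM + 1) for 12649 genes whose mean FPKM was 1 or more. The fitted log2 change below is the change of that trend from 0 to 4 mM, a difference on the log2(FPKM + 1) scale. For a line fitted without its 4 mM library, it is the slope over 0 to 2 mM carried on to 4 mM. On this scale genes at low FPKM change less than their FPKM do. Calls were made at an adjusted p below 0.05 (Benjamini-Hochberg, over all 12649 genes). Of 11 epithelial and urothelial markers, 8 had a mean of at least 1 FPKM in 5637 cells (summed level 974 to 3549.6 FPKM over the 4 libraries) and 3 in UM-UC3 cells (98.4 to 203 FPKM), and UPK3A was listed at 0 throughout. In 5637 cells 5 of the 8 fell over dose, or 62.5% beside 20.4% of all genes, and CDH1 rose. From 0 to 4 mM in 5637 cells, KRT19 went from 1229 to 231 FPKM, KRT7 from 784 to 33 FPKM and KRT5 from 639 to 120 FPKM. Without 5637 4 mM, 2 of the 8 fell in 5637 cells. None of 3 leukocyte and 3 endothelial markers reached 1 FPKM in either line, with summed levels of at most 0.175 and 0.0824 FPKM and CD3E at 0. Of 4 neuron markers SNAP25 alone had a line mean of at least 1 FPKM, in UM-UC3 cells, while SYT1 reached 1.97 FPKM in 5637 cells at 4 mM. Of 4 fibroblast markers COL1A1 alone had such a mean, in 5637 cells.

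The mitotic and the transport kinesins took different courses over the dose. Summed over the 14 mitotic kinesins, the level in 5637 cells was 409 FPKM with DMSO, 422 at 1 mM, 284 at 2 mM and 330.2 at 4 mM, and in UM-UC3 cells it was 278, 255, 155 and 101 FPKM. The sum in 5637 cells was therefore lowest at 2 mM and partly back at 4 mM, whereas the sum in UM-UC3 cells was lower at every step. Summed over the 15 transport kinesins, the level was 158, 189, 203 and 221 FPKM in 5637 cells and 229.7, 228, 230.4 and 221 FPKM in UM-UC3 cells. The largest part of this sum in every library was KIF5B. It was at 55.4, 64.2, 60.7 and 68.5 FPKM in 5637 cells and 87.1, 90.9, 95.9 and 89.7 FPKM in UM-UC3 cells. The mitotic sum was 2.58, 2.23, 1.40 and 1.496 times the transport sum in 5637 cells and 1.21, 1.12, 0.671 and 0.458 times in UM-UC3 cells, so the ratio was below its DMSO level at every dose in both lines. Mitotic kinesins held 67.0% of the summed kinesin level in 5637 cells with DMSO and 54.4% at 4 mM, against 49.7% and 26.9% in UM-UC3 cells. These class sums are a description, with no test. In bulk RNA, fewer dividing cells and less kinesin RNA in each cell cannot be told apart.

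**Figure D1:**
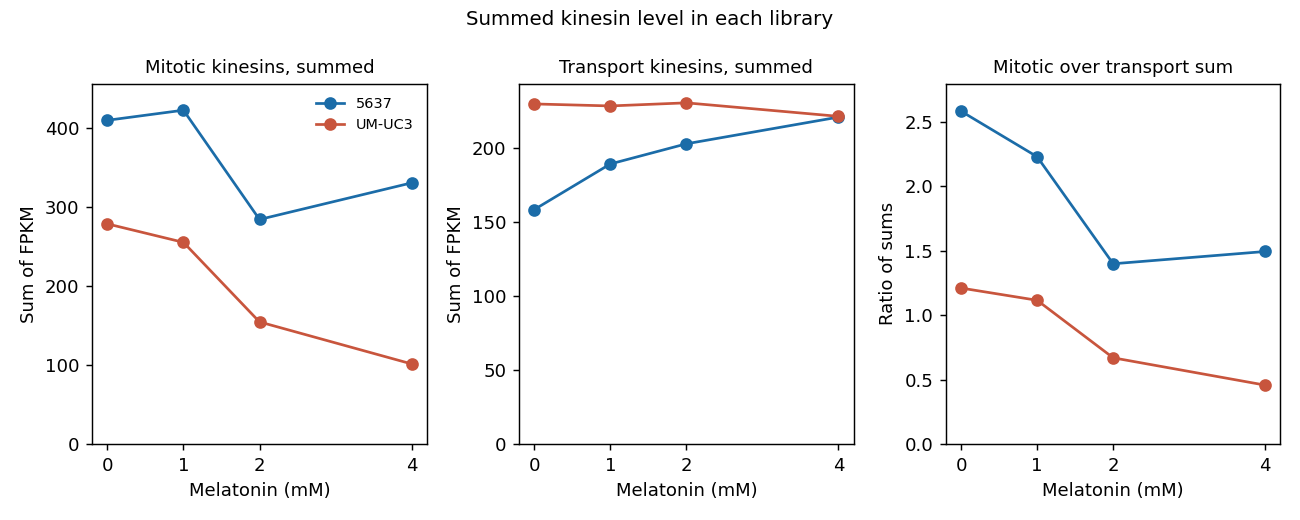
Summed FPKM of the 14 mitotic kinesins (left), of the 15 transport kinesins (middle) and their ratio (right) against the melatonin dose in mM, with 1 library per point, 5637 cells in blue and UM-UC3 cells in red. The mitotic sum ended at 101 FPKM in UM-UC3 cells at 4 mM, while in 5637 cells it went from 284 FPKM at 2 mM to 330.2 at 4 mM.

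Of the 42 kinesins, 32 had a mean of at least 1 FPKM and were tested, among them 12 mitotic, 13 transport and 7 other kinesins. Over both lines 5 of the 32 rose and 10 fell, which is 15.6% and 31.2% of them beside 12.1% and 12.8% of all genes tested. In 5637 cells the 8 that rose and the 6 that fell made up 25.0% and 18.8%, close to the 23.0% and 20.4% of all genes. In UM-UC3 cells it was 4 up and 17 down, or 12.5% and 53.1% beside 12.5% and 16.7% of all genes. Not one of the 12 mitotic kinesins rose. The number that fell was 7 over both lines, 4 of the 12 in 5637 cells and 11 of the 12 in UM-UC3 cells. Their median fitted log2 change was -0.89 for both lines together, -0.37 for 5637 and -1.43 for UM-UC3, where all genes had medians of -0.01, 0.05 and -0.04. Of the 13 transport kinesins, 3 went up and 2 down over both lines, 5 up and 1 down in 5637 cells, and 3 up and 4 down in UM-UC3 cells, with medians of 0.19, 0.42 and 0.01. Of the 7 other kinesins, 2 went up and 1 down over both lines, 3 up and 1 down in 5637 cells, and 1 up and 2 down in UM-UC3 cells. These medians moved when 1 library was left out. The mitotic median in 5637 cells was -1.06 without 5637 4 mM, and the one over both lines was -0.58 without UM-UC3 4 mM. The transport median in 5637 cells was 0.85 without 5637 4 mM and 0.14 without 5637 0 mM. Over both lines the transport median was 0.35 without UM-UC3 4 mM, 0.125 without 5637 0 mM and 0.105 without 5637 4 mM. The calls within a line were largely lost without its 4 mM library, in fits with 3 doses for that line. The fitted changes of many members were then as large or larger. They are slopes over 0 to 2 mM carried on to 4 mM, a dose those fits did not hold, as are the medians of such fits. Without UM-UC3 4 mM the mitotic median in UM-UC3 cells was -1.52, but limma called 0 of the 32 in UM-UC3 cells (13 had an unadjusted p under 0.05), and the 21 lost calls had adjusted p from 0.0881 to 0.855. Nearly all calls were lost there, with 47 of all 12649 genes called in UM-UC3 cells against 3696 with all 8 libraries. Without 5637 4 mM, KIF21B and KIF5C were the 2 kinesins still called in 5637 cells, and the 12 lost calls had adjusted p from 0.0608 to 0.778. Of all genes 773 were still called in 5637 cells, against 5483 with all 8 libraries. In that fit KIF22 was at -1.53 and KIF20A also at -1.53 on the fitted log2 scale, again carried on from 0 to 2 mM.

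Promoter sequence was looked at because many genes of the G2 and M phases share short promoter elements. Known ones in human cells are the cell cycle genes homology region, with the letters TTTGAA or TTCGAA, and the CCAAT box bound by NF-Y. RefSeq promoter windows of GRCh38.p14, from 250 bases before to 50 after a gene's start, were matched by symbol for 34 of the 42 kinesins. Both strands were searched, so that TTTGAA may read TTCAAA and CCAAT may read ATTGG, and TTTGAA and CCAAT may share a T. Of the 14 mitotic kinesins, all matched, 11 had TTTGAA or TTCGAA, 11 had CCAAT and 10 had both. KIF20A, KIF2B and KIF2C had neither TTTGAA nor TTCGAA, and KIF15, KIF2B and KIF2C had no CCAAT. The 14 include KIF2B and KIF4B, which were too low to be tested over dose, and KIF4B had both motifs. A kinesin with more than 1 window was counted if any of its windows had the letters. Of 11 matched transport kinesins 1 (KIF5B) had TTTGAA or TTCGAA, 4 had CCAAT and 1 had both. Of 9 matched other kinesins 1 (KIF24) had TTTGAA or TTCGAA, 3 had CCAAT and 1 had both. Over all 35116 promoter windows 16.4% had TTTGAA or TTCGAA, 34.6% had CCAAT and 6.38% had both. The stretches from 130 bases before to 20 after the start are printed for a part of the mitotic kinesins and for KIF3A and KIF3B, transport kinesins that rose, for comparison. KIF2C and KIF15, which fell in UM-UC3 cells, are among the mitotic kinesins not printed. KIF2C has none of these letters in its window, and KIF15 has TTTGAA without CCAAT. The mitotic KIF18A and the transport kinesin KIF5B, also not printed, have both motifs and were called in no trend over dose. Whether the motifs go with a fall was not tested. Capitals mark the motif letters, and each is read 5′ to 3′ on the strand of its gene.
KIF23: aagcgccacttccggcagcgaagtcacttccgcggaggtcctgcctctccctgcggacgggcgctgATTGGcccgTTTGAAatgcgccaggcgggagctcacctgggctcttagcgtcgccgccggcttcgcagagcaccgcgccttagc
KIF20A: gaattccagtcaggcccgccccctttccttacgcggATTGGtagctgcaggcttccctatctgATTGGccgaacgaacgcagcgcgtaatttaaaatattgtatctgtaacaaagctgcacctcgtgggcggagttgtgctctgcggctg
KIF4A: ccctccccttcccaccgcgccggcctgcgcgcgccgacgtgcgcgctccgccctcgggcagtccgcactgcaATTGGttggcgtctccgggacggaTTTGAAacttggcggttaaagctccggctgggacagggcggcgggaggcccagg
KIF14: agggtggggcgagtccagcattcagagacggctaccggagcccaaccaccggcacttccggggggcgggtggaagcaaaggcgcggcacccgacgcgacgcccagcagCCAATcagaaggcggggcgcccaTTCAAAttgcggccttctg
KIF11: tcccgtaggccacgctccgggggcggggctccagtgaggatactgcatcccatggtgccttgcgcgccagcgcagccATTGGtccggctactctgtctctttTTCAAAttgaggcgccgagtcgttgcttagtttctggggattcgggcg
KIFC1: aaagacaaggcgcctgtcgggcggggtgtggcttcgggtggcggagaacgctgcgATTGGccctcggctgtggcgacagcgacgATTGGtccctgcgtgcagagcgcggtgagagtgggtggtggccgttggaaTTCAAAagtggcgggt
KIF22: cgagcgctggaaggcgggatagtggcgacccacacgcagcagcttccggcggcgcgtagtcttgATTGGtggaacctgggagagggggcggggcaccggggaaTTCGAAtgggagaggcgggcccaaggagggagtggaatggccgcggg
KIF3A: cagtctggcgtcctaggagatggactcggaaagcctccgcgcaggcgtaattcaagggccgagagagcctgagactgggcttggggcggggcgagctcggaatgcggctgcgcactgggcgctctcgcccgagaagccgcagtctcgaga
KIF3B: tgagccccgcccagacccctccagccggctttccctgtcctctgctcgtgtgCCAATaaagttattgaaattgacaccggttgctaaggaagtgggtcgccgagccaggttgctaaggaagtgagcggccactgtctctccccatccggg
On the plus strand lie those of KIF23 (chr15:69414219-69414368), KIF20A (chr5:138178982-138179131), KIF4A (chrX:70289974-70290123), KIF11 (chr10:92593000-92593149), KIFC1 (chr6:33391693-33391842), KIF22 (chr16:29790621-29790770, the first of 2 windows) and KIF3B (chr20:32277521-32277670), and on the minus strand those of KIF14 (chr1:200620732-200620881) and KIF3A (chr5:132737527-132737676). In KIF11, KIF23, KIF4A, KIF14, KIFC1 and KIF22 a CCAAT box stands ahead of a TTTGAA or TTCGAA. KIF20A has CCAAT in 2 places and neither TTTGAA nor TTCGAA in its window, KIF3B has CCAAT alone, and KIF3A has none of these letters. A match is a run of letters in a window and no measured binding site.

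Among the kinesins of the spindle midzone and cytokinesis, KIF23 had the highest mean of all mitotic kinesins. KIF23 (ENSG00000137807, chr15:69414246-69448427, GRCh38), the motor of the centralspindlin complex, was at 61.9, 64.5, 36.9 and 48.96 FPKM in 5637 cells and 55.7, 49.2, 28.2 and 16.7 FPKM in UM-UC3 cells at 0, 1, 2 and 4 mM, the order in which the 4 values of a line are given from here on. Its level in UM-UC3 cells was lower at each dose, while in 5637 cells 2 mM was lowest and 4 mM lay between 2 mM and DMSO. KIF23 fell over both lines, with a fitted log2 change of -1.11 ± 0.32 (SE, adjusted p = 0.0326), and in UM-UC3 cells with -1.78 ± 0.30 (SE, adjusted p = 0.00271). In 5637 cells its fitted log2 change was -0.45 ± 0.30 (SE, adjusted p = 0.255). The call over both lines was lost without 5637 1 mM (adjusted p = 0.0644) and without UM-UC3 0, 1, 2 or 4 mM (adjusted p = 0.0985, 0.0566, 0.0548 and 0.133). KIF20A (ENSG00000112984, chr5:138178719-138187723), which brings the chromosomal passenger complex to the midzone, was at 41.7, 36.4, 24.1 and 22.4 FPKM in 5637 cells and 39.6, 35.5, 16.2 and 12.4 FPKM in UM-UC3 cells. It was lower at each step in both lines, and the lines ran close together at 0 and 1 mM. KIF20A fell by a fitted log2 change of -1.33 ± 0.26 (SE, adjusted p = 0.00793) over both lines, -0.91 ± 0.29 (SE, adjusted p = 0.0274) in 5637 cells and -1.74 ± 0.29 (SE, adjusted p = 0.00254) in UM-UC3 cells. Over both lines the call held in each of the 8 fits that left out 1 library. In 5637 cells it was also lost without 5637 0 mM (adjusted p = 0.16) and 1 mM (adjusted p = 0.0648).

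KIF4A (ENSG00000090889, chrX:70290104-70420886), a chromosome-bound kinesin that also sets the length of midzone microtubules with PRC1, was at 34.2, 40.4, 32.8 and 40.2 FPKM in 5637 cells and 31.5, 26.7, 16.8 and 9.07 FPKM in UM-UC3 cells. The UM-UC3 level was lower at each dose and at 4 mM 0.288 times that with DMSO, and the 5637 levels stayed between 32.8 and 40.4 FPKM with no order over dose. In UM-UC3 cells KIF4A fell by a fitted log2 change of -1.76 ± 0.20 (SE, adjusted p = 5.97e-04). It was 0.15 ± 0.20 (SE, adjusted p = 0.583) in 5637 cells and -0.81 ± 0.35 (SE, adjusted p = 0.121) over both lines, with no call in either. KIF4B, its near copy without introns, was listed at no more than 0.0375 FPKM, and reads shared by both genes could be assigned to either. PDZD11 overlaps the gene by 411 bases on the other strand. KIF14, which anchors citron kinase at the midbody, was at 16.2, 15.5, 9.499 and 8.24 FPKM in 5637 cells and 5.36, 5.38, 2.49 and 0.906 FPKM in UM-UC3 cells. It was lowest at 4 mM in both lines, and every UM-UC3 level was below every 5637 level. KIF14 fell by -1.44 ± 0.26 (SE, adjusted p = 0.00578) on the fitted log2 scale over both lines, by -0.98 ± 0.27 (SE, adjusted p = 0.0156) in 5637 cells and by -1.89 ± 0.27 (SE, adjusted p = 0.00148) in UM-UC3 cells. Its call over both lines held with each library left out, and its call in 5637 cells was also lost without 5637 0 mM (adjusted p = 0.0735). KIF20B, needed for the final cut between daughter cells, was at 17.8, 21.96, 16.5 and 18.9 FPKM in 5637 cells and 14.3, 11.9, 8.52 and 6.75 FPKM in UM-UC3 cells. It was lower at each step in UM-UC3 cells and without order in 5637 cells. Its fitted log2 change was -1.01 ± 0.22 (SE, adjusted p = 0.00854) in UM-UC3 cells and -0.02 ± 0.22 (SE, adjusted p = 0.938) in 5637 cells. Without UM-UC3 0 mM its call in UM-UC3 cells was lost too (adjusted p = 0.0793).

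KIF11, KIF15 and KIFC1 act on the bipolar spindle. KIF11 (ENSG00000138160, chr10:92593130-92655395), the motor that pushes the spindle poles apart and the target of several antimitotic compounds, was at 44.4, 48.3, 34.5 and 46.8 FPKM in 5637 cells and 26.7, 28.7, 18.3 and 12.05 FPKM in UM-UC3 cells. The 5637 level dipped at 2 mM alone, and the UM-UC3 level was above DMSO at 1 mM and lowest at 4 mM. KIF11 fell in UM-UC3 cells by a fitted log2 change of -1.21 ± 0.26 (SE, adjusted p = 0.007798). The same measure was -0.00 ± 0.26 (SE, adjusted p = 0.992) in 5637 cells and -0.61 ± 0.28 (SE, adjusted p = 0.1397) over both lines. KIF15, which can hold the poles apart beside KIF11, was at 11.1, 15.2, 9.85 and 10.1 FPKM in 5637 cells and 9.74, 9.47, 6.22 and 3.06 FPKM in UM-UC3 cells. The 5637 level was highest at 1 mM, and the UM-UC3 level was lower at each dose. KIF15 fell by -0.90 ± 0.29 (SE, adjusted p = 0.0482) on the fitted log2 scale over both lines and by -1.50 ± 0.27 (SE, adjusted p = 0.00355) in UM-UC3 cells, with -0.30 ± 0.27 (SE, adjusted p = 0.399) in 5637 cells. The call over both lines was lost without 5637 1 or 2 mM (adjusted p = 0.0905 and 0.0736) and without UM-UC3 0, 1, 2 or 4 mM (adjusted p = 0.125, 0.0806, 0.0787 and 0.221). TMEM42 overlaps KIF15 by 3767 bases on the same strand, at 1.39 to 5.35 FPKM in 5637 cells and 7.67 to 9.63 FPKM in UM-UC3 cells. KIFC1, a motor toward minus ends that focuses the poles, was at 37.2, 35.8, 24.4 and 24.9 FPKM in 5637 cells and 10.4, 10.6, 6.18 and 4.53 FPKM in UM-UC3 cells. The 2 and 4 mM levels lay below the 0 and 1 mM levels in each line, and all UM-UC3 levels were below all 5637 levels. KIFC1 fell by a fitted log2 change of -0.89 ± 0.21 (SE, adjusted p = 0.01498) over both lines, a call that held with each library left out. In UM-UC3 cells it fell by -1.16 ± 0.24 (SE, adjusted p = 0.00711), and in 5637 cells it was not called at -0.62 ± 0.24 (SE, adjusted p = 0.0611).

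The remaining mitotic kinesins act on chromosomes and microtubule ends. KIF2C (ENSG00000142945, chr1:44739818-44767767), which takes microtubules apart at centromeres, was at 40.4, 43.97, 28.8 and 39.5 FPKM in 5637 cells and 43.4, 36.3, 23.9 and 16.2 FPKM in UM-UC3 cells. In 5637 cells 2 mM stood apart as the low dose and 4 mM was back near DMSO, and in UM-UC3 cells every step was lower. KIF2C fell in UM-UC3 cells by a fitted log2 change of -1.41 ± 0.26 (SE, adjusted p = 0.00373), with -0.13 ± 0.26 (SE, adjusted p = 0.718) in 5637 cells and -0.77 ± 0.29 (SE, adjusted p = 0.0807) over both lines. KIF22, which pushes chromosome arms outward, was at 51.1, 44.6, 29.7 and 23.6 FPKM in 5637 cells and 17.6, 13.8, 8.75 and 6.03 FPKM in UM-UC3 cells. Every step was lower in both lines, and KIF22 had the smallest p of the 32 kinesins over both lines. It fell by -1.29 ± 0.17 (SE, adjusted p = 0.00215) on the fitted log2 scale over both lines, -1.14 ± 0.21 (SE, adjusted p = 0.00187) in 5637 cells and -1.44 ± 0.21 (SE, adjusted p = 0.00147) in UM-UC3 cells. The call over both lines held with each library left out. KIF18B, which shortens astral microtubules, was at 36.2, 33.5, 21.7 and 23.6 FPKM in 5637 cells and 9.27, 8.698, 6.49 and 3.62 FPKM in UM-UC3 cells. All UM-UC3 levels were below all 5637 levels, and the 2 and 4 mM levels were the low ones in each line. KIF18B fell by a fitted log2 change of -0.93 ± 0.21 (SE, adjusted p = 0.0125) over both lines, held with each library left out, and by -1.21 ± 0.24 (SE, adjusted p = 0.00567) in UM-UC3 cells. In 5637 cells it fell by -0.66 ± 0.24 (SE, adjusted p = 0.0487). That call was lost without any one of 7 libraries, which beside 5637 4 mM were 5637 0 mM (adjusted p = 0.256), 5637 1 mM (adjusted p = 0.108), and UM-UC3 0, 1, 2 and 4 mM (adjusted p = 0.0583, 0.0653, 0.0638 and 0.0591). KIF18A, which damps chromosome movement at the spindle equator, ranged from 15.1 to 22.8 FPKM in 5637 cells and 10.1 to 18.7 FPKM in UM-UC3 cells. It was the 1 tested mitotic kinesin called in none of these trends, with a fitted log2 change of -0.64 ± 0.29 (SE, adjusted p = 0.122) in UM-UC3 cells.

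Read dose by dose, all 12 tested mitotic kinesins were below DMSO at 2 mM in both lines. At 4 mM all 12 were at their lowest in UM-UC3 cells, at a median of 0.358 times the DMSO level, and 8 of them were lower at every step. In 5637 cells 2 mM was the lowest dose for 9 of the 12, those same 9 stood higher at 4 mM than at 2 mM, and 8 of the 12 were below DMSO at 4 mM, at a median of 0.848 times. KIF14, KIF20A and KIF22 were lower at each step in 5637 cells. Single doses have 1 library in each line and were not tested. Over both lines 7 of the 12 fell with all 8 libraries. It was 2 of 13 tested with no filter on low values, and 2 of the 12 without both 4 mM libraries. With 1 library left out it was 7 without 5637 0 mM, 6 without 5637 2 mM, and 5 without 5637 1 mM or any single UM-UC3 library. Without 5637 4 mM, where those 9 stood higher than at 2 mM, 11 of the 12 fell. That fit called 2677 of all genes, against 3150 with all 8 libraries. The calls added to the 7 were those of KIF11, KIF20B, KIF2C and KIF4A, with adjusted p of 0.0125, 0.0312, 0.00573 and 0.0106.

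**Figure D2:**
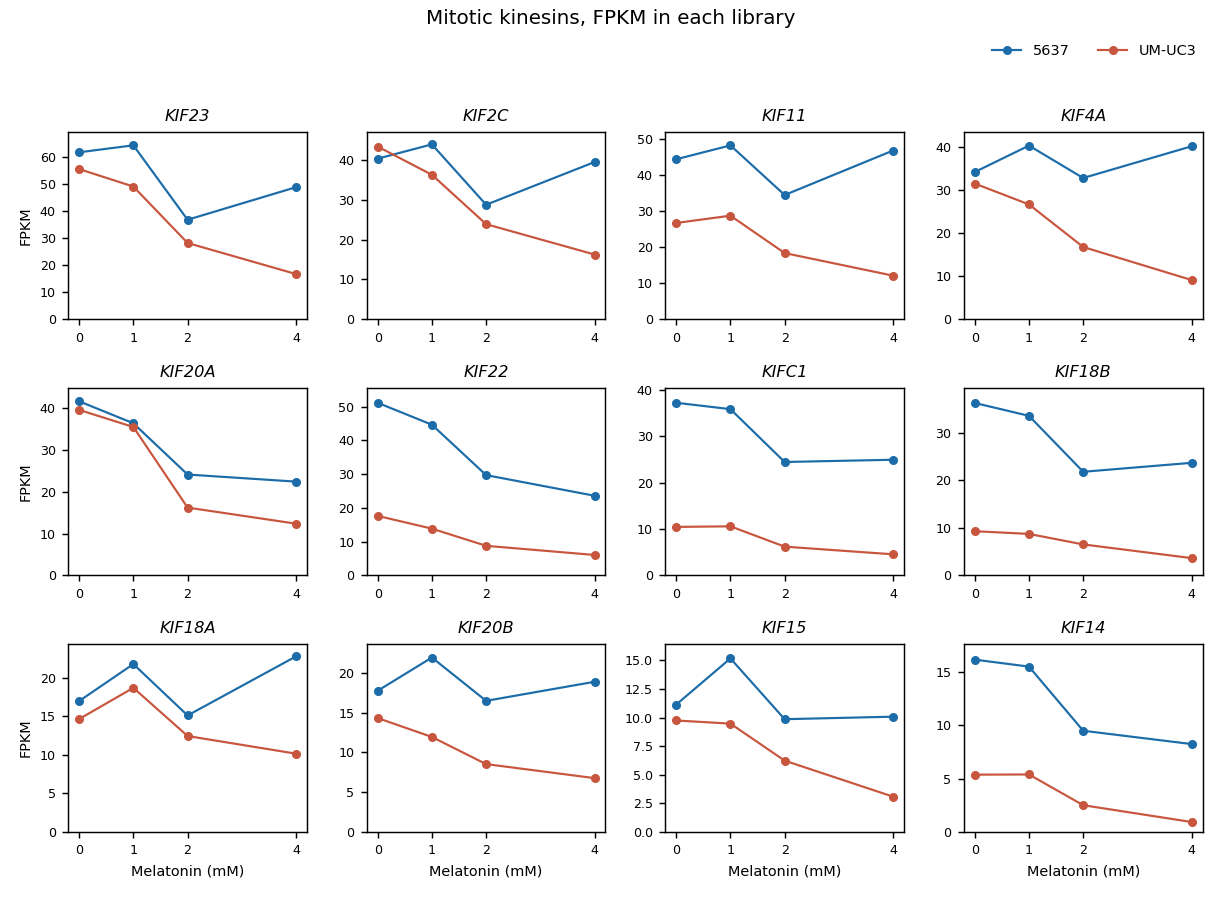
FPKM of the 12 tested mitotic kinesins against the melatonin dose in mM, ordered by mean level, with 1 library per point, 5637 cells in blue and UM-UC3 cells in red. All 12 have their lowest UM-UC3 level at 4 mM, and 9 have their lowest 5637 level at 2 mM.

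Kinesin-1 heavy chains, the main carriers toward plus ends, split by gene. KIF5B, the form made in most tissues, had the highest mean of the 42 kinesins and was at 55.4, 64.2, 60.7 and 68.5 FPKM in 5637 cells and 87.1, 90.9, 95.9 and 89.7 FPKM in UM-UC3 cells. The UM-UC3 levels were all above the 5637 levels, neither line varied much with dose, and the fitted log2 change over both lines was 0.14 ± 0.14 (SE, adjusted p = 0.482). KIF5C, best known from neurons, was at 2.57, 5.77, 8.09 and 12.8 FPKM in 5637 cells and 0.636, 1.24, 2.23 and 2.95 FPKM in UM-UC3 cells. It was higher at every step in both lines and at 4 mM 4.97 times its DMSO level in 5637 cells and 4.64 times in UM-UC3 cells. KIF5C rose by a fitted log2 change of 1.56 ± 0.24 (SE, adjusted p = 0.00369) over both lines, 1.84 ± 0.29 (SE, adjusted p = 9.19e-04) in 5637 cells and 1.27 ± 0.29 (SE, adjusted p = 0.0104) in UM-UC3 cells. Over both lines and in 5637 cells the call held with each library left out. In UM-UC3 cells it was also lost without UM-UC3 0 mM (adjusted p = 0.117). The neuron marker SNAP25 was at 0, 0.0931, 0.222 and 0.772 FPKM in 5637 cells and 2.09, 2.05, 2.63 and 1.82 FPKM in UM-UC3 cells. Another, SYT1, was at 0.217, 0.384, 0.792 and 1.97 FPKM in 5637 cells and 0.318, 0.289, 0.276 and 0.3002 FPKM in UM-UC3 cells, so that both were higher at each step in 5637 cells. The 4 neuron markers summed to 0.217 to 2.74 FPKM in 5637 cells and 2.12 to 2.91 FPKM in UM-UC3 cells with STMN2 at 0. Their part in the KIF5C result was not tested. KIF5A, a neuronal heavy chain, ranged from 0.0192 to 0.0846 FPKM in 5637 cells and 1.18 to 2.595 FPKM in UM-UC3 cells, where it fell by -0.73 ± 0.23 (SE, adjusted p = 0.0387) on the fitted log2 scale. That call was also lost without 5637 1 mM (adjusted p = 0.0617), UM-UC3 0 mM (adjusted p = 0.0867) and UM-UC3 1 mM (adjusted p = 0.0689). It was lost as well with a pseudocount of 0.1 (adjusted p = 0.09). DCTN2 overlaps the gene by 1199 bases on the other strand at 79.9 to 86.8 FPKM in that line.

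Kinesin-2 motors build cilia and carry cargo as a complex of KIF3A, KIF3B or KIF3C and the accessory subunit KIFAP3. KIF3A was at 5.26, 7.75, 7.898 and 12.1 FPKM in 5637 cells and 9.84, 13.2, 20.04 and 19.4 FPKM in UM-UC3 cells. In each line all melatonin levels were above DMSO, and the UM-UC3 level was highest at 2 mM. KIF3A rose by a fitted log2 change of 0.95 ± 0.20 (SE, adjusted p = 0.00983) over both lines, 0.99 ± 0.26 (SE, adjusted p = 0.0117) in 5637 cells and 0.92 ± 0.26 (SE, adjusted p = 0.0239) in UM-UC3 cells. KIF3B, its usual partner, was at 19.7, 26.6, 30.5 and 39.9 FPKM in 5637 cells and 18.4, 19.9, 19.8 and 29.2 FPKM in UM-UC3 cells. The 5637 level was higher at each dose, and in UM-UC3 cells 4 mM alone stood well above the rest. KIF3B rose by 0.78 ± 0.16 (SE, adjusted p = 0.00833) on the fitted log2 scale over both lines, 0.94 ± 0.19 (SE, adjusted p = 0.00303) in 5637 cells and 0.63 ± 0.19 (SE, adjusted p = 0.0303) in UM-UC3 cells. For both genes the call over both lines held with each library left out. In UM-UC3 cells the calls of KIF3A and KIF3B were also lost without UM-UC3 0 mM (adjusted p = 0.254 and 0.0782) and without 1 mM (adjusted p = 0.0539 and 0.0635), and that of KIF3A in 5637 cells without 5637 0 mM (adjusted p = 0.102). KIF3C ranged from 6.199 to 12.4 FPKM in 5637 cells and 2.25 to 4.41 FPKM in UM-UC3 cells, with a fitted log2 change of 0.15 ± 0.30 (SE, adjusted p = 0.734) over both lines. KIFAP3 was at 12.5, 14.3, 13.5 and 18.3 FPKM in 5637 cells and 9.94, 10.3, 13.3 and 12.2 FPKM in UM-UC3 cells and had 0.39 ± 0.16 (SE, adjusted p = 0.101).

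Kinesin-3 motors, which move vesicles and endosomes, went in both directions. KIF1C, which carries vesicles and RNA to the cell edge, was at 21.3, 21.1, 19.5 and 12.2 FPKM in 5637 cells and 29.7, 24.6, 19.1 and 16.5 FPKM in UM-UC3 cells. It was lower at each step in both lines, with the 5637 drop mostly between 2 and 4 mM. KIF1C fell by a fitted log2 change of -0.80 ± 0.16 (SE, adjusted p = 0.00776) over both lines, -0.79 ± 0.20 (SE, adjusted p = 0.0104) in 5637 cells and -0.82 ± 0.20 (SE, adjusted p = 0.014) in UM-UC3 cells. The call over both lines held with each library left out, and that in UM-UC3 cells was also lost without UM-UC3 0 mM (adjusted p = 0.122). KIF1B, a carrier of mitochondria and synaptic vesicle precursors, was at 14.03, 18.7, 21.1 and 31.6 FPKM in 5637 cells and 13.9, 13.9, 14.1 and 10.9 FPKM in UM-UC3 cells. Both lines were alike with DMSO, after which the 5637 level was higher at each dose and the UM-UC3 level changed little and was lowest at 4 mM. KIF1B rose in 5637 cells by 1.08 ± 0.18 (SE, adjusted p = 0.00126) on the fitted log2 scale and had -0.34 ± 0.18 (SE, adjusted p = 0.188) in UM-UC3 cells. KIF13B, a carrier of membrane receptors, was at 3.595, 4.08, 5.17 and 6.19 FPKM in 5637 cells and 4.44, 4.38, 4.89 and 4.42 FPKM in UM-UC3 cells, higher at each step in 5637 cells and without order in UM-UC3 cells. KIF13B rose in 5637 cells by a fitted log2 change of 0.66 ± 0.20 (SE, adjusted p = 0.0236), a call also lost without 5637 0 mM (adjusted p = 0.109) and 1 mM (adjusted p = 0.0531). KIF13A, a motor of recycling endosomes, ranged from 7.94 to 12.05 FPKM in 5637 cells and 11.4 to 22.9 FPKM in UM-UC3 cells. In the latter it was lower at each step and fell by -0.97 ± 0.25 (SE, adjusted p = 0.0184) on the fitted log2 scale, a call also lost without UM-UC3 0 mM (adjusted p = 0.0675). KIF16B, a motor of early endosomes, ranged from 7.51 to 7.97 FPKM in 5637 cells and 6.02 to 8.197 FPKM in UM-UC3 cells and was not called over dose.

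Of the minus-end transport kinesins, KIFC3, which acts at cell junctions and the Golgi, was at 9.27, 7.35, 9.21 and 5.31 FPKM in 5637 cells and 18.4, 13.3, 12.1 and 7.53 FPKM in UM-UC3 cells. It was lowest at 4 mM in both lines, with no order between 0 and 2 mM in 5637 cells. KIFC3 fell by a fitted log2 change of -0.88 ± 0.20 (SE, adjusted p = 0.0138) over both lines, lost without UM-UC3 0 mM (adjusted p = 0.0525). In UM-UC3 cells it fell by -1.13 ± 0.23 (SE, adjusted p = 0.00658), also lost without that library (adjusted p = 0.0718), and in 5637 cells it was not called at -0.62 ± 0.23 (SE, adjusted p = 0.0532). KIFC2 ranged from 4.33 to 7.98 FPKM in 5637 cells and 11 to 16.8 FPKM in UM-UC3 cells and had a fitted log2 change of 0.47 ± 0.21 (SE, adjusted p = 0.123) over both lines.

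Among the other kinesins, KIF27, a relative of KIF7 with a role in motile cilia known from mice, was at 1.98, 2.99, 3.497 and 7.65 FPKM in 5637 cells and 0.849, 1.14, 1.79 and 2.46 FPKM in UM-UC3 cells. It was higher at every step in both lines. KIF27 rose by a fitted log2 change of 1.22 ± 0.20 (SE, adjusted p = 0.00459) over both lines, 1.51 ± 0.23 (SE, adjusted p = 7.23e-04) in 5637 cells and 0.92 ± 0.23 (SE, adjusted p = 0.01404) in UM-UC3 cells. The call over both lines held with each library left out, and that in UM-UC3 cells was also lost without UM-UC3 0 mM (adjusted p = 0.0937). KIF21A, which restrains microtubule growth, was at 11.8, 10.98, 12.7 and 22.9 FPKM in 5637 cells and 26.9, 28.5, 34.3 and 36.3 FPKM in UM-UC3 cells. The UM-UC3 levels were all above the 5637 levels, and in 5637 cells 4 mM alone stood out. KIF21A rose by 0.71 ± 0.19 (SE, adjusted p = 0.0267) on the fitted log2 scale over both lines and 0.97 ± 0.22 (SE, adjusted p = 0.00588) in 5637 cells, with 0.44 ± 0.22 (SE, adjusted p = 0.159) in UM-UC3 cells. Over both lines the call was lost without 5637 0 mM (adjusted p = 0.0514), 1 mM (adjusted p = 0.054) or 4 mM (adjusted p = 0.13) and without UM-UC3 1 mM (adjusted p = 0.0516). KIF21B, its paralog best known from neurons and lymphocytes, was at 2.87, 3.93, 6.66 and 8.199 FPKM in 5637 cells and 0.0633, 0.0855, 0.0979 and 0.0595 FPKM in UM-UC3 cells. It was higher at each step in 5637 cells and near 0 at every dose in UM-UC3 cells. KIF21B rose in 5637 cells by a fitted log2 change of 1.28 ± 0.25 (SE, adjusted p = 0.00276), a call kept with each library left out.

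KIF2A, which takes microtubule ends apart in neurons and at spindle poles, was at 15.7, 15.9, 12.8 and 7.89 FPKM in 5637 cells and 14.4, 12.5, 9.69 and 8.06 FPKM in UM-UC3 cells. It was lowest at 4 mM in both lines and the lines overlapped. KIF2A fell by a fitted log2 change of -0.88 ± 0.16 (SE, adjusted p = 0.00602) over both lines, -0.97 ± 0.20 (SE, adjusted p = 0.00354) in 5637 cells and -0.78 ± 0.20 (SE, adjusted p = 0.0163) in UM-UC3 cells. The call over both lines held with each library left out, and that in UM-UC3 cells was also lost without UM-UC3 0 mM (adjusted p = 0.112). DIMT1 overlaps KIF2A by 43742 bases on the other strand and was at 5.39 to 8.26 FPKM in 5637 cells and 8.31 to 10.9 FPKM in UM-UC3 cells. The part of reads from the other strand was not tested. KIF24, which checks the growth of cilia at the centriole, was at 4.33, 4.17, 3.54 and 5.73 FPKM in 5637 cells and 2.36, 3.3, 1.95 and 0.831 FPKM in UM-UC3 cells. It was highest at 4 mM in 5637 cells and lowest at 4 mM in UM-UC3 cells, where it fell by -1.04 ± 0.31 (SE, adjusted p = 0.0323) on the fitted log2 scale. That call was also lost without 5637 1 mM (adjusted p = 0.0556) and UM-UC3 1 mM (adjusted p = 0.0683). KIF7, which works at the tip of the cilium in Hedgehog signalling, was at 4.61, 4.39, 5.71 and 2.12 FPKM in 5637 cells and 3.49, 5.69, 4.15 and 3.88 FPKM in UM-UC3 cells, with 4 mM lowest in 5637 cells and DMSO lowest in UM-UC3 cells, and was not called (over both lines -0.44 ± 0.30 (SE, adjusted p = 0.304)). TICRR overlaps KIF7 by 22268 bases on the other strand. KIF9, a motor of motile cilia, ranged from 0.8103 to 2.01 FPKM in 5637 cells and 1.89 to 2.23 FPKM in UM-UC3 cells and was not called.

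**Figure D3:**
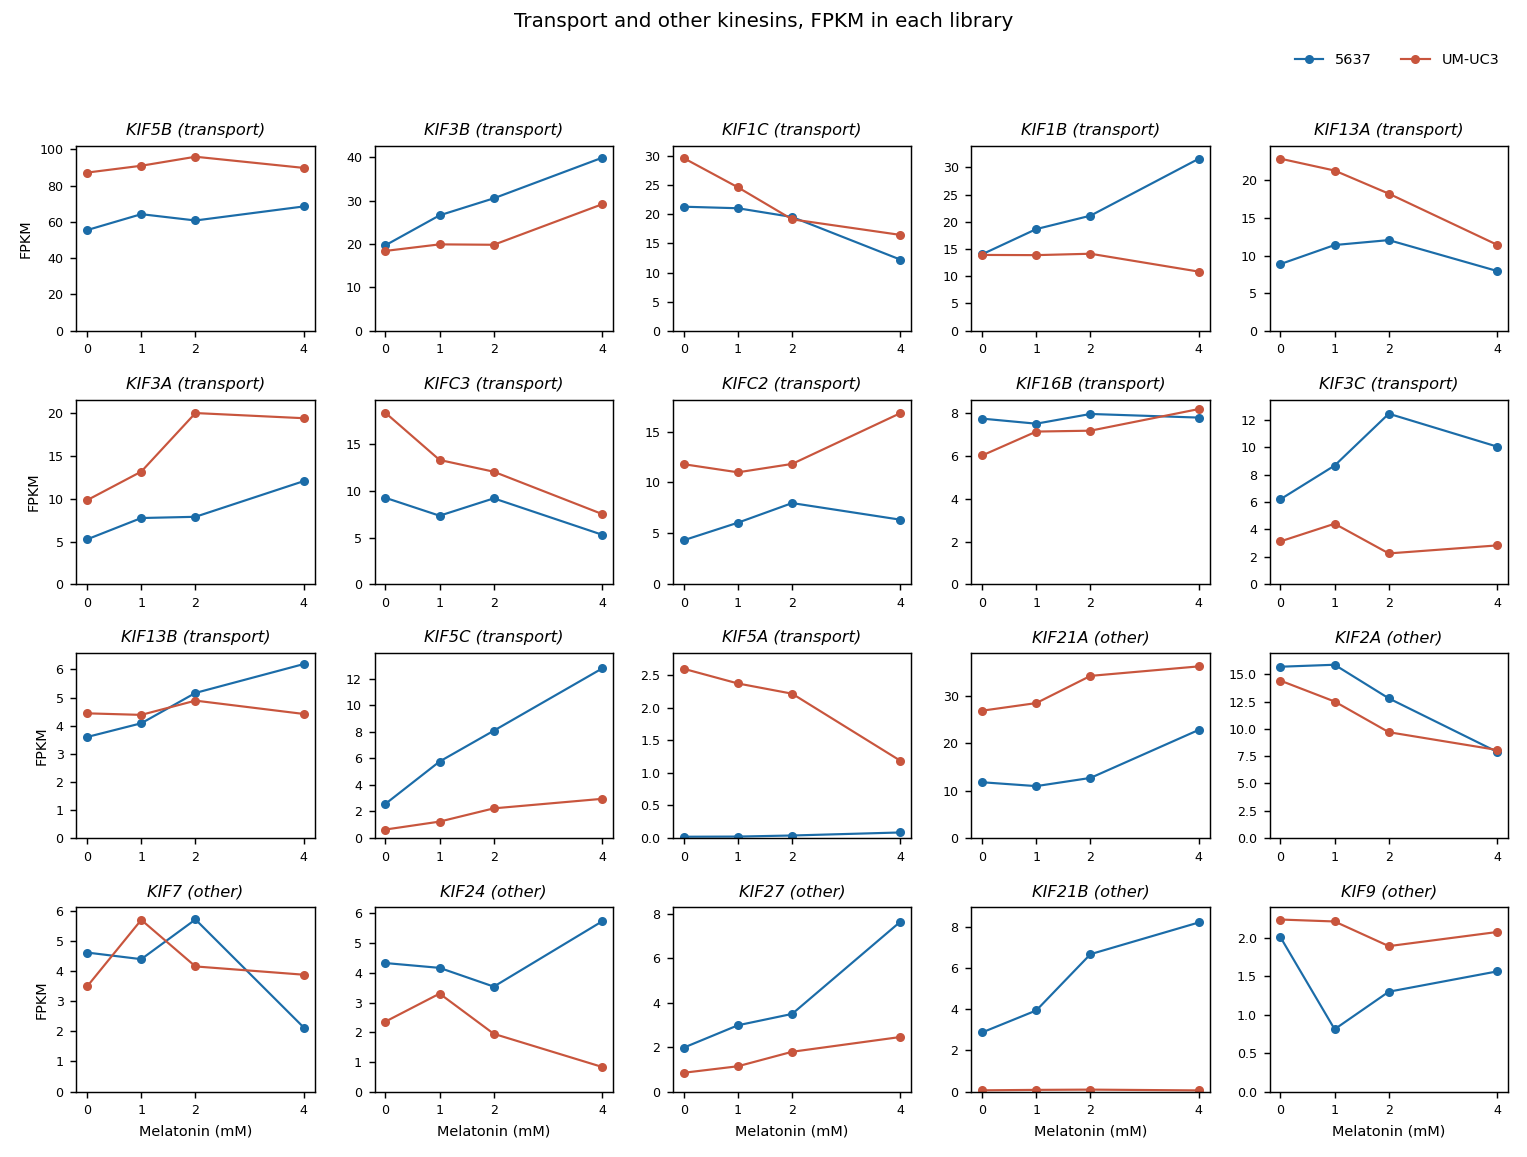
FPKM of the 13 transport and 7 other kinesins with a mean of at least 1 FPKM against the melatonin dose in mM, with the class in each title, 1 library per point, 5637 cells in blue and UM-UC3 cells in red. KIF5C and KIF27 are higher at each step in both lines, KIF1C is lower at each step in both, and KIF1B goes up in 5637 cells alone.

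The 10 kinesins with a mean below 1 FPKM were not tested. KIF2B and KIF19 were listed at 0 in all 8 libraries. KIF26A ranged from 0 to 0.02699 FPKM in 5637 cells and 0.359 to 1.33 FPKM in UM-UC3 cells. For KIF17, a transport motor of neurons and cilia, the ranges were 0 to 0.0318 and 0.343 to 0.845 FPKM, and for KIF26B they were 0 to 0.0509 and 0.289 to 0.668 FPKM, so these 3 were mostly found in UM-UC3 cells. KIF1A, a motor of synaptic vesicle precursors, KIF4B, KIF6, KIF12 and KIF25 stayed at or below 0.111 FPKM.

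The slopes of the lines were then compared gene by gene. The slope was lower in UM-UC3 than in 5637 cells for 9 of the 32 kinesins and higher for 0, beside 15.3% and 10.4% of all genes, whose median difference was -0.11. Of the 9, 6 were mitotic, 1 was a transport kinesin and 2 were other kinesins. Called or not, the difference was below 0 for all 12 mitotic, 11 of the 13 transport and 5 of the 7 other kinesins. The median differences of these classes were -0.95, -0.51 and -0.53. KIF4A differed by -1.91 ± 0.28 (SE, adjusted p = 0.002397) on the fitted log2 scale (UM-UC3 minus 5637), KIF23 by -1.33 ± 0.42 (SE, adjusted p = 0.0434) and KIF2C by -1.29 ± 0.36 (SE, adjusted p = 0.0274). KIF11 differed by -1.21 ± 0.37 (SE, adjusted p = 0.0365), KIF15 by -1.20 ± 0.38 (SE, adjusted p = 0.0425) and KIF20B by -0.98 ± 0.31 (SE, adjusted p = 0.0423). These 6 fell in UM-UC3 cells and were not called in 5637 cells. KIF1B differed by -1.42 ± 0.26 (SE, adjusted p = 0.00495) and rose in 5637 cells, with no call in UM-UC3 cells. KIF21B is counted among the 9, but it passed the filter through 5637 cells alone and was at most 0.0979 FPKM in UM-UC3 cells, where its slope on this scale stays near 0. Its difference of -1.29 therefore restates the rise in 5637 cells, and with a pseudocount of 0.1 it was not called (adjusted p = 0.0817). KIF24 differed by -1.38 ± 0.44 (SE, adjusted p = 0.0454). The calls of KIF4A and KIF1B were lost without a 4 mM library (adjusted p = 0.0692 and 0.0731 without 5637 4 mM, 0.109 and 0.214 without UM-UC3 4 mM) and held without each of the other 6. The remaining 7 were lost without 4 to 6 of the 8 libraries. For the 4 mitotic kinesins that fell in each line the difference was not called, which does not show that the lines acted alike. KIF14 was at -0.91 ± 0.39 (SE, adjusted p = 0.107), KIF20A at -0.83 ± 0.41 (SE, adjusted p = 0.156), KIF18B at -0.55 ± 0.34 (SE, adjusted p = 0.244) and KIF22 at -0.30 ± 0.29 (SE, adjusted p = 0.467). After rescaling the libraries by trimmed mean factors, the median difference over all genes was -0.01, and KIF11 (adjusted p = 0.0522), KIF20B (0.0653), KIF23 (0.0676) and KIF24 (0.0504) were no longer called.

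**Figure D4:**
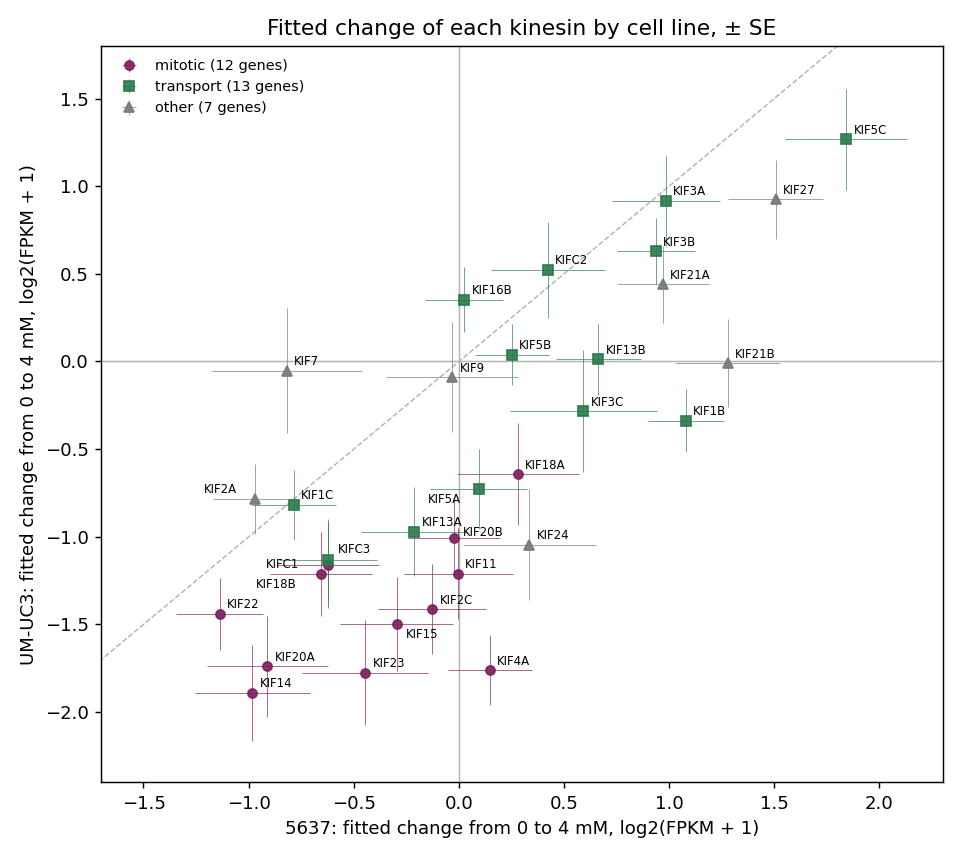
Fitted change from 0 to 4 mM on the log2(FPKM + 1) scale in 5637 cells (horizontal axis) and UM-UC3 cells (vertical axis) for the 32 tested kinesins, with SE bars from limma, mitotic kinesins as circles, transport as squares and others as triangles, and a dashed line of equal change. All 12 mitotic kinesins lie below the dashed line, as do 11 of the 13 transport and 5 of the 7 other kinesins. KIF4A lies at 0.15 in 5637 cells and -1.76 in UM-UC3 cells.

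Between the lines, with the dose in the fit, 7 of the 32 kinesins were higher in UM-UC3 cells and 16 were lower, beside 30.0% and 36.7% of all genes. All 9 of the called mitotic kinesins were lower, with KIF18B at -1.93 ± 0.15 (SE, adjusted p = 5.53e-06), KIFC1 at -1.87 ± 0.15 (SE, adjusted p = 6.93e-06), KIF14 at -1.67 ± 0.19 (SE, adjusted p = 5.26e-05) and KIF22 at -1.64 ± 0.12 (SE, adjusted p = 4.16e-06) as log2 differences (UM-UC3 minus 5637). KIF20A, KIF2C and KIF18A were not called. Among transport kinesins 6 were higher, with KIFC2 at 0.96 ± 0.15 (SE, adjusted p = 4.73e-04), and 4 were lower, with KIF5C at -1.51 ± 0.18 (SE, adjusted p = 6.85e-05) and KIF3C at -1.30 ± 0.22 (SE, adjusted p = 6.75e-04). KIF21A was higher in UM-UC3 cells by 1.11 ± 0.14 (SE, adjusted p = 1.06e-04). These counts hold KIF5A and KIF21B, which passed the filter through the 1 line where they were high, so their call between the lines followed from the filter. KIF5A had a mean of 0.0408 FPKM in 5637 cells and 2.09 FPKM in UM-UC3 cells, and KIF21B 5.42 and 0.0765 FPKM. The line calls of KIF1B, KIF3B and KIF23 were lost in fits without 1 library. That of KIF1B was lost without 5637 2 mM (adjusted p = 0.0563) or 4 mM (adjusted p = 0.0614), that of KIF3B without UM-UC3 2 mM (adjusted p = 0.0516). That of KIF23 was lost without 5637 1 or 4 mM (adjusted p = 0.102 and 0.103) or UM-UC3 2 or 4 mM (adjusted p = 0.113 and 0.132).

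Genes that work with the mitotic kinesins were counted next. Like the classes and the other lists, this list was chosen with earlier results of these data known. Its shares are therefore a description and no independent test of the mitotic kinesins. Of 23 spindle and cytokinesis partners, 18 went down over both lines, and 9 did so in 5637 cells and 22 did so in UM-UC3 cells. These were 78.3%, 39.1% and 95.7% of them beside 12.8%, 20.4% and 16.7% of all genes, and in these 3 trends 0 went up. Their median fitted log2 changes were -1.16, -0.48 and -1.69. With 1 library left out, 9 to 22 fell over both lines, with 9 and a median of -0.68 without UM-UC3 4 mM. In 5637 cells 2 fell without 5637 4 mM, with a median of -0.97, and in UM-UC3 cells 1 fell without UM-UC3 4 mM, with a median of -1.93. These fits called 773 and 47 of all 12649 genes. PRC1, which bundles midzone microtubules and binds KIF4A, was at 56.1, 57.9, 32 and 19.6 FPKM in 5637 cells and 17.7, 13.9, 10.5 and 4.12 FPKM in UM-UC3 cells and fell by a fitted log2 change of -1.76 ± 0.19 (SE, adjusted p = 0.00153) over both lines. It was lowest at 4 mM in each line. The checkpoint kinase BUB1B fell by -1.54 ± 0.17 (SE, adjusted p = 0.001795) on the fitted log2 scale, PLK1, a kinase of spindle assembly, by -1.85 ± 0.21 (SE, adjusted p = 0.00183), and TPX2, a spindle assembly factor, by -1.47 ± 0.23 (SE, adjusted p = 0.00382). Of 2 kinesins under other names, CENPE, which pulls chromosomes to the spindle equator, was at 26.1, 30.5, 20.6 and 26.8 FPKM in 5637 cells and 20.4, 15.7, 10.6 and 9.599 FPKM in UM-UC3 cells and fell in UM-UC3 cells by -1.02 ± 0.27 (SE, adjusted p = 0.0182), and STARD9 rose in 5637 cells by 0.89 ± 0.23 (SE, adjusted p = 0.0115).

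Genes that serve transport were looked at beside these. Of 11 tested kinesin light chains and adaptors 3 rose and 0 fell over both lines, or 27.3% and 0% beside 12.1% and 12.8% of all genes. A single adaptor rose in 6 of the 8 fits without 1 library, those that kept both 4 mM libraries. SPAG9, a scaffold that links motors to signalling kinases, was at 37, 59.7, 72.4 and 117 FPKM in 5637 cells and 55.4, 59.6, 100.1 and 88.7 FPKM in UM-UC3 cells, above DMSO at every dose in both lines. SPAG9 rose by a fitted log2 change of 1.15 ± 0.25 (SE, adjusted p = 0.0111). The light chain KLC2 rose by 0.55 ± 0.16 (SE, adjusted p = 0.0354) and TRAK2, an adaptor of mitochondria, by 0.58 ± 0.18 (SE, adjusted p = 0.0431) on the same scale. In 5637 cells the 3 up (27.3%) lay near the 23.0% of all genes and 1 went down (9.09% beside 20.4%). In UM-UC3 cells 1 went up (9.09% beside 12.5%) and 0 went down. Of 23 tested dynein and dynactin genes, which make up the motor toward minus ends and its activator, 2 rose (8.7% beside 12.1% of all genes) and 0 fell over both lines. These were the adaptor BICD1, which rose by 0.75 ± 0.15 (SE, adjusted p = 0.00924) and the dynein regulator NDEL1, which rose by 1.06 ± 0.25 (SE, adjusted p = 0.0166). For 5637 cells this was 3 up and 3 down, 13% each and under the 23.0% and 20.4% of all genes. For UM-UC3 cells it was 3 up and 1 down, 13% and 4.35% beside 12.5% and 16.7%. Without the 4 mM library of a line, limma called 0 of the 23 in that line.

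Known regulators of G2 and M phase genes were mixed. Of 20 tested, 4 went up and 5 down over both lines, 6 up and 5 down in 5637 cells, and 2 up and 7 down in UM-UC3 cells. The shares up were 20%, 30% and 10% beside 12.1%, 23.0% and 12.5% of all genes, and the shares down 25%, 25% and 35% beside 12.8%, 20.4% and 16.7%. Without the 4 mM library of a line, 0 regulators were called in 5637 cells, and 1 went up and 1 down in UM-UC3 cells. Of all genes 773 and 47 were called in these fits. CDKN1A, the cyclin-dependent kinase inhibitor p21, was at 18.1, 22.9, 68.7 and 208 FPKM in 5637 cells and 11.5, 19.7, 62.9 and 89.6 FPKM in UM-UC3 cells, higher at each dose in both lines. CDKN1A rose by a fitted log2 change of 3.31 ± 0.34 (SE, adjusted p = 0.00145). E2F8, a repressor of the E2F family, fell by -1.40 ± 0.21 (SE, adjusted p = 0.00303), LIN37, a subunit of the DREAM complex, rose by 0.99 ± 0.17 (SE, adjusted p = 0.00474), and FOXM1, an activator of G2 and M phase genes, fell by -1.13 ± 0.22 (SE, adjusted p = 0.00753). The cells' cycle phase was not measured in these libraries, and the part of these regulators in the kinesin levels was not tested.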

How the data were processed

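Per the methods and the submitters' processing notes, directional libraries of poly(A) RNA were read in pairs, trimmed with Cutadapt and Trimmomatic and aligned to GRCh38 with HISAT2, and CASAVA 1.8, FastQC, StringTie and edgeR are also named. The labels name an RNeasy kit for the RNA and the methods a HiPure kit. The sources used here give neither an annotation release nor the strand setting of the counting. The authors deposited a normalized value for every gene in each library, taken here to be FPKM since nearly all values above 0 carry decimals and the totals of the libraries differ, although the sheet does not name a unit. Since these are not counts, depth is unknown and no counting interval is given. A further sheet with a subset of the same values and one with other content were not used.

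Sample groups came from the labels. Values were set to log2(FPKM + 1), and the 12649 genes whose mean FPKM was 1 or more were fitted with limma 3.58.1 in R 4.3.3 (eBayes, trend and robust), on dose divided by 4 with a term for the line (5 residual degrees of freedom), and again with a slope for each line (4 residual degrees of freedom) for the trend in each line and their difference. Adjusted p-values are Benjamini-Hochberg over all genes fitted. The fit was tested on simulated data. Tables and plots were made with pandas 2.3.3 and matplotlib 3.10.9 in Python 3.11.15. Symbols, chromosomes and strands of all 42 kinesins were found in GENCODE 44, 32 of them with the same start and end. Values in every library are given for KIF11, KIF20A, KIF23, KIF2C and KIF4A, for the 12 called kinesins with the smallest p in each trend and in the difference, and for the 3 with the highest mean in each class. Of each other gene list, up to 4 called genes with the smallest p over both lines are named, and CENPE, STARD9, KIFAP3, SYT1 and SNAP25 were named after their values were seen. Of the leukocyte markers, 1 is not reported here. The members, classes and lists were chosen with earlier results of these data known. Alternatives were no filter or a minimum mean of 5, libraries rescaled by trimmed mean factors, a pseudocount of 0.1, log2 of dose, any dose against DMSO, protein-coding genes alone, no 4 mM libraries, no line term, 0 and 4 mM alone, and each library left out in turn.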

Additional observations from a re-analysis of the deposited data

Results flagged for a closer look

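For 9 kinesins the test of the difference between the slopes of the lines itself passed the threshold, with limma adjusted p under 0.05 and a lower slope in UM-UC3 cells in each. They were 28.1% of the 32 tested, beside 15.3% of all genes, whose median difference was -0.113. The differences, as fitted log2 changes from 0 to 4 mM (UM-UC3 minus 5637), were -1.91 for KIF4A, -1.42 for KIF1B, -1.38 for KIF24, -1.33 for KIF23, -1.29 for KIF21B, -1.29 for KIF2C, -1.21 for KIF11, -1.20 for KIF15 and -0.983 for KIF20B. KIF4A, KIF23, KIF2C, KIF11, KIF15 and KIF20B are mitotic and went down in UM-UC3 cells, KIF1B and KIF21B went up in 5637 cells, and KIF24 fell in UM-UC3 cells. With 1 library for each dose and line, the doses at which the lines part were not tested. KIF21B passed the filter on low values through 5637 cells alone, and its difference was not called with a pseudocount of 0.1 (-1.58, adjusted p = 0.0817). After rescaling the libraries by trimmed mean factors, KIF11, KIF20B, KIF23 and KIF24 were no longer called. In the 8 fits that left out 1 library, KIF4A and KIF1B were each called in 6, and the other kinesins named here in 2 to 4.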

How the results depend on the processing

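Depth is unknown and each dose has 1 library per line, and the counts of called kinesins moved under several alternatives. Over both lines 15 of the 32 tested kinesins were called by limma, against 7 with no filter on low values (40 kinesins tested), 3 without both 4 mM libraries, and 0 with no line term (7 had an unadjusted p under 0.05), with any dose against DMSO (3) and with 0 and 4 mM alone (10), and 12 to 19 with 1 library left out. Of all genes 3150 were called there, against 1104 with no filter and 351 without both 4 mM libraries. It was 3 with no line term, 0 with any dose against DMSO, 68 with 0 and 4 mM alone and 2287 to 4449 with 1 library left out. In 5637 cells 14 were called, against 9 with no filter, 8 with log2 of dose, 4 without both 4 mM libraries and 0 with any dose against DMSO (1), and 2 to 16 with 1 library left out. The counts over all genes were 5483, against 4649, 3544, 1151 and 0 in the same order, and 773 to 5758 with 1 library left out. In UM-UC3 cells 21 were called, against 7 with no filter, 13 with log2 of dose, 3 without both 4 mM libraries and 0 with any dose against DMSO (0), and 0 to 21 with 1 library left out, 0 of them without UM-UC3 4 mM (13) and 11 without UM-UC3 0 mM. The counts over all genes were 3696, against 1676, 1462, 525 and 0 in the same order. They were 47 without UM-UC3 4 mM and 1959 without UM-UC3 0 mM. For the difference of slopes 9 were called, against 5 with rescaled libraries, 2 with log2 of dose and 0 with no filter (15), with any dose against DMSO (0) and without both 4 mM libraries (5), and 0 to 9 with 1 library left out. The counts over all genes were 3249, against 3438, 763, 318, 0 and 116 in the same order, and 63 to 3585 with 1 library left out. Between the lines 23 were called, and 21 to 24 with 1 library left out, beside 8430 and 7661 to 8750 of all genes. The cause of each move was not tested. Signs were followed for called values, and for KIF11, KIF20A, KIF23, KIF2C and KIF4A in each trend and the difference of slopes. The signs of other values that were not called were not followed. Among those followed, a sign turned in 6 cases, none of them a called value except KIF24. KIF11 in 5637 cells turned from -0.00367 to 0.0749, 0.0752 and 0.0448 without 5637 0, 1 or 2 mM (-0.713 to 0.0752 with 1 library left out). KIF4A in 5637 cells turned from 0.147 to -0.116 both without 5637 4 mM and without both 4 mM libraries (-0.116 to 0.227 with 1 library left out). The difference of KIF24 turned from -1.38 to 0.0878 without both 4 mM libraries. No paired analysis was possible because each dose has 1 library in each line, and the line is already a term of the fit.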
